A study of Mus musculus with 6 samples.

Results

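Histone methylation and deacetylation enzymes are the proteins that write and erase chemical marks on chromatin. Those described here are the lysine and arginine methyltransferases of the Kmt2, Setd and Prmt families, the lysine demethylases of the Kdm family, and the deacetylases of the Hdac and Sirt families. They were chosen by gene symbol from the normalized table of the series, which lists 12179 genes. The family names matched 53 symbols, and 51 genes remained once Kdm5c and Kdm6a were set aside under the same rule. The table names some genes by older symbols, so that Setd8 is the gene now called Kmt5a and Prmt10 the gene now called Prmt9. It lists Kmt5b and Kmt5c by other symbols, which the rule does not take. LT-HSCs, the long-term HSCs that sustain blood formation, were sorted as CD150+CD48-LSK cells from the BM of C57BL/6 mice at 8 weeks of age, and RNA-Seq was performed on 3 WT and 3 Foxm1 HET mice. Foxm1 encodes a forkhead transcription factor that drives cell cycle genes, and the comparison asks what changes in LT-HSCs when 1 Foxm1 allele is targeted. The Foxm1 HET libraries carry the genotype Foxm1 heterozygous and titles that name 1 floxed and 1 intact allele. The Cre driver of the sequenced mice is not named. Elsewhere the study used Tie2-Cre, which is active in endothelial and hematopoietic cells, and Mx1-Cre, which is induced by poly(I:C). The labels give no treatment for either genotype and do not say whether the WT mice carried a Cre transgene.

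These enzymes help set which genes a stem cell can use. Methylation of lysines on the histone H3 tail marks active promoters and enhancers or silent chromatin, depending on the residue, and demethylases of the Jumonji and LSD types take it away. Deacetylases of the Hdac classes use zinc, whereas sirtuins use NAD+, and both act within larger protein complexes or outside the nucleus altogether. In blood, Kmt2a is required for HSC maintenance and is rearranged in acute leukemia, Kmt2d and Setd2 are mutated in hematologic malignancies, and Sirt7 has been linked to HSC aging.

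Library totals ran from 14573002 to 25798509 counted reads. The smallest was Foxm1 HET replicate 2, which stood apart from the rest. It held at least 10 reads for 4467 genes, against 5963 to 9894 in the other libraries, and it had 12 of the 51 enzymes at 0 reads, against 2 to 8 elsewhere. A count of 0 still allows up to 3 reads by counting error alone. Foxm1, the targeted gene, was lower in each Foxm1 HET library (659, 5 and 742 reads) than in each WT library (1182, 2615 and 2942 reads), although its log2 fold change of -3.30 did not pass the test (adjusted p = 0.961, edgeR quasi-likelihood test after Benjamini-Hochberg adjustment). Among LT-HSC markers, Kit had 10720 to 48031 reads in every library. The other sort markers were uneven, with Slamf1, which encodes CD150, at 8 reads or fewer in 4 of the 6 libraries and Ly6a, which encodes Sca-1, at 4 reads or fewer in 3. The 12 LT-HSC markers summed to 1367 to 3737 TPM (counts per exon base, scaled to the same sum in every library) in WT and 2507 to 3298 in Foxm1 HET, with 9 to 12 of them at 10 reads or more in a library. Neutrophil genes were also present, and their 10 markers summed to 16098 to 35729 TPM in WT and 3559 to 18546 TPM in Foxm1 HET. Of the B cell markers reported here, Cd79a, Ms4a1, Ebf1, Vpreb1 and Igll1 had 0 reads throughout, Pax5 had 18 reads in Foxm1 HET replicate 2 and 0 elsewhere, and Cd79b had 967, 289 and 3 reads in WT against 170, 0 and 0 in Foxm1 HET. The sums of the erythroid, macrophage, megakaryocyte and T and NK cell markers overlapped between the genotypes. The part of any of these in the results below was not tested. In bulk libraries, fewer cells with a transcript and less transcript per cell cannot be told apart.

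No histone methylation or deacetylation enzyme passed the test between the genotypes. Of the 51 enzymes, 44 had enough reads in enough libraries to be tested (all but Hdac6, Hdac10, Kdm1b, Kdm8, Prmt7, Setd4 and Sirt6). Of the 44, 0 had an adjusted p under 0.05 by the edgeR quasi-likelihood test after Benjamini-Hochberg adjustment over 8195 genes. Of all genes, 0.329% did (0.317% higher and 0.0122% lower in Foxm1 HET). At an unadjusted p under 0.05 there were 3 enzymes, Sirt7 and Kdm4b with higher and Hdac5 with lower levels in Foxm1 HET, which is 6.82% of the 44 against 6.03% of all genes (3.44% higher and 2.59% lower). DESeq2 called Hdac5 and Kdm4b at an adjusted p under 0.05 and gave no adjusted p for 12 enzymes, among them Sirt7. These are 2 of 32 enzymes with an adjusted p, and of all 6195 genes with one DESeq2 called 194 (3.13%). The log2 fold changes, Foxm1 HET minus WT, ran from -6.34 for Hdac5 to 7.89 for Sirt7 with a median of -0.08, against -0.26 over all genes tested. They were above 0 for 20 enzymes (45.5%) and below 0 for 24, beside 45.4% above 0 for all genes. Upper-quartile scaling turned this split to 25 above and 19 below, and moved the median of all genes to 0.14. The median standard error of an enzyme's log2 fold change was 2.17, and 27 of the 44 fold changes were smaller than their own error. Without Foxm1 HET replicate 2, 0 enzymes passed the threshold, Hdac5 and Kdm4b had an unadjusted p under 0.05, and 10 enzymes did not overlap (22.7%, against 19.3% of all genes).

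**Figure D1:**
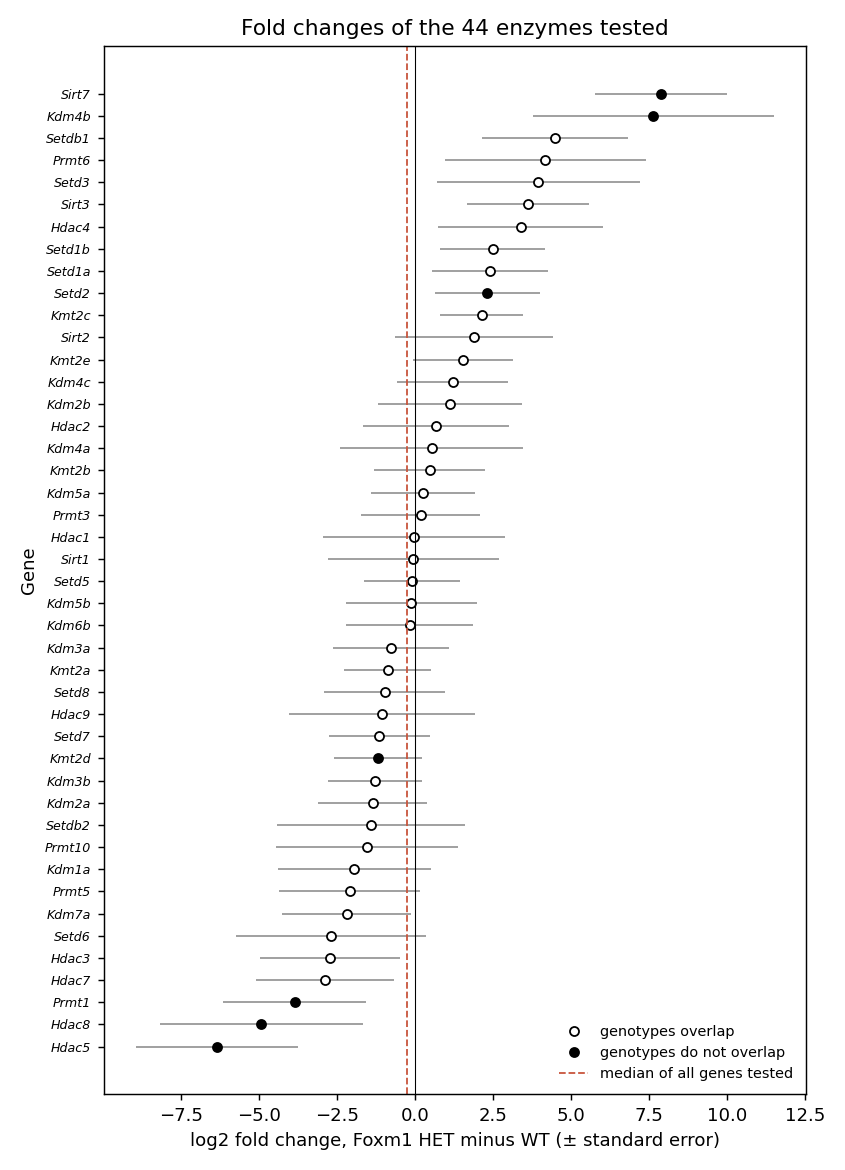
Log2 fold change of each of the 44 enzymes tested, Foxm1 HET minus WT, with its standard error as a line on each side. Filled points mark the 7 enzymes whose genotypes did not overlap, open points the others, and the dashed line the median of all genes tested (-0.26); Sirt7 at 7.89 and Hdac5 at -6.34 lie at the ends.

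Separation of the genotypes was seen for 7 enzymes. In Sirt7, Kdm4b and Setd2 each Foxm1 HET library lay above each WT library on log2 CPM (CPM are counts scaled to library size, here after TMM scaling), and in Hdac5, Hdac8, Prmt1 and Kmt2d each lay below. These 7 are 15.9% of the 44 enzymes, where 8.68% of all genes tested did not overlap (4.12% higher and 4.55% lower in Foxm1 HET), and the difference between these shares was not tested. For each of the 7 the two-sided exact permutation test gave p = 0.1, the smallest that 3 libraries against 3 allow. Any gene without overlap gets this value, so it adds nothing to the separation by which the 7 were chosen. Scaling changed some of them. Setd2 overlapped under RLE scaling, Hdac8 under upper-quartile and library-size scaling, and Kmt2d under both of these and in the deposited normalized table. The other 4 (Sirt7, Kdm4b, Hdac5 and Prmt1) did not overlap under any of these scalings. In turn Kdm1a under RLE scaling and Setdb1 and Setd1b under library-size scaling no longer overlapped. Kdm8, not tested above, did not overlap in the normalized table, but Foxm1 HET replicate 2 had 0 reads, as each WT library did. The normalized value for 0 reads differed between libraries, at 0.13, 0.14 and 0.16 in WT and 0.18 in Foxm1 HET replicate 2.

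**Figure D2:**
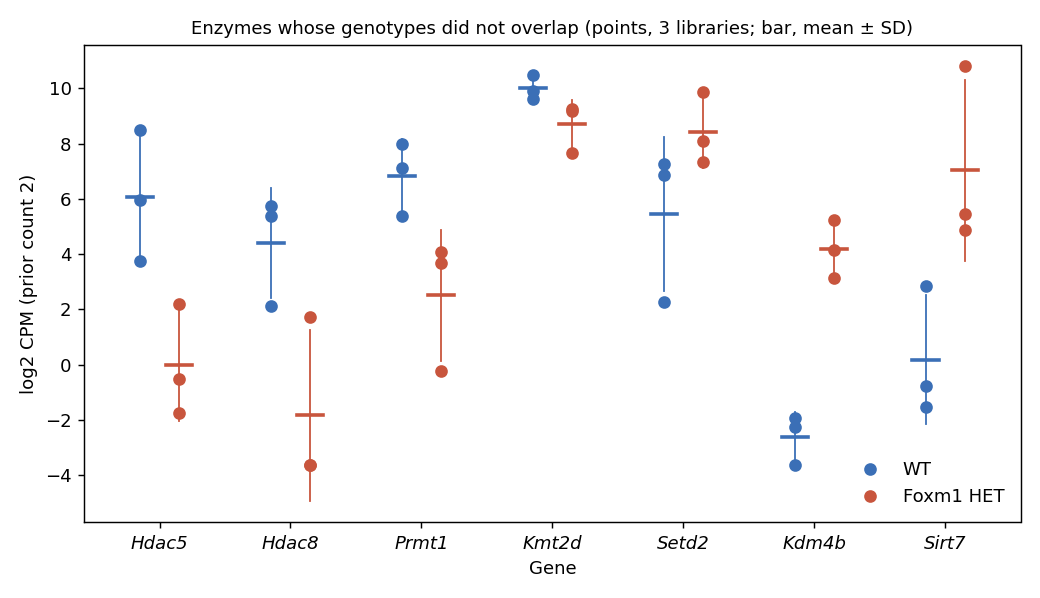
Log2 CPM (prior count 2) of the 7 enzymes whose genotypes did not overlap after TMM scaling, with 1 point per library, WT in blue and Foxm1 HET in red, and the mean ± SD of 3 libraries as a bar. The gap is widest for Kdm4b relative to its spread, but its WT libraries had 4, 0 and 2 reads, where the prior count narrows the spread. Kmt2d has the highest mean in both genotypes.

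Among the sirtuins, Sirt7 had the highest log2 fold change and the smallest p of all 44 enzymes. Sirt7, a nucleolar deacetylase of H3K18 that acts on ribosomal RNA genes, lies at chr11:120618372-120625002 of GRCm38. It had 156, 6 and 8 reads in WT replicates 1, 2 and 3 and 1647, 11544 and 1219 reads in Foxm1 HET replicates 1, 2 and 3. Foxm1 HET replicate 2 thus held 79.2% of the reads, but the other Foxm1 HET libraries were also well above every WT library. Its log2 CPM was 0.18 ± 2.33 (SD, n = 3) over the WT mice and 7.04 ± 3.27 (SD, n = 3) over the Foxm1 HET mice. The fitted log2 fold change was 7.89 with a standard error of 2.12, just short of the threshold (adjusted p = 0.0589, edgeR quasi-likelihood test after Benjamini-Hochberg adjustment). Without Foxm1 HET replicate 2 it was 3.88, and with upper-quartile scaling the adjusted p was 0.0301 by the same edgeR test, which then called 43 of all 8195 genes (0.525%). Across all the alternatives tried the adjusted p ran from 0.0301 to 1. Only 1.44% of the 50-base stretches of its transcripts, the length of a read, also occur in other genes.

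The rest of the sirtuins were uneven from library to library. With a single library per mouse, differences between mice and between libraries cannot be told apart. Sirt3, the main mitochondrial deacetylase, gave 1111, 403 and 5 reads in the WT mice and 780, 5010 and 2235 in the Foxm1 HET mice, in replicate order. The genotypes overlapped, and the log2 fold change was 3.63 with a standard error of 1.95. Sirt2, a mainly cytosolic deacetylase of tubulin, was either abundant or nearly absent, with 6, 1004 and 1 reads in the WT mice and 3914, 1 and 2623 in the Foxm1 HET mice. For Sirt1, a nuclear deacetylase of histones and of p53, the reads were 810, 21 and 303 in the WT mice and 341, 2 and 1892 in the Foxm1 HET mice, with a log2 fold change of -0.05. The order of the libraries thus differed from gene to gene. Sirt6, a nuclear enzyme of DNA repair, had at most 1 read in the WT libraries and 68, 0 and 608 in Foxm1 HET and could not be tested under the filter on low counts. Sirt4 and Sirt5 had at most 9 reads in any library and are not in the normalized table. Summed per length over the 5 sirtuins listed, the level was 109, 81.2 and 8.05 TPM in WT and 302, 1495 and 398 TPM in Foxm1 HET, and Sirt7 was the larger part of the 1495.

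Among the zinc-dependent deacetylases, Hdac5 and, except under upper-quartile and library-size scaling, Hdac8 lay lower in every Foxm1 HET library, and none passed the test. Class I deacetylases form the catalytic core of the NuRD, Sin3, CoREST and NCoR complexes, with Hdac8 acting apart from these on cohesin. Of the 4 class I genes 3 had a log2 fold change below 0, with a median of -1.38, and 3 of the 4 class IIa genes did, with a median of -1.97. The class I split became 2 above and 2 below under each other scaling of the reads. In the normalized table it was 3 above and 1 below, with a median of 0.32. The class IIa split held under each other scaling of the reads, but without WT replicate 2 its median was 1.16. Summed over the Hdac genes, Foxm1 HET replicate 2 stood at 6.97 TPM, whereas the other 5 libraries stood at 204 to 451 TPM.

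Hdac5, a class IIa deacetylase that shuttles between nucleus and cytoplasm and binds MEF2 factors, had the lowest log2 fold change of the enzymes. It lies at chr11:102195747-102230172 and gave 1378, 8236 and 217 reads in the WT mice and 173, 4 and 9 in the Foxm1 HET mice. Every Foxm1 HET library was below every WT library, with log2 CPM of 6.08 ± 2.37 (SD, n = 3) over the WT mice and -0.02 ± 2.03 (SD, n = 3) over the Foxm1 HET mice. The highest Foxm1 HET library and the lowest WT library were close in reads, 173 against 217. Its log2 fold change was -6.34, with a standard error of 2.60 and an adjusted p of 0.560 (edgeR quasi-likelihood test after Benjamini-Hochberg adjustment). With DESeq2 on the same reads it was -6.36 with an adjusted p of 0.0105, and over all alternatives the adjusted p ran from 0.0105 to 1. Without WT replicate 2, which held 82.2% of the reads, the log2 fold change was -4.26, and it ran from -8.48 to -4.26 as each library was left out.

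Hdac8 showed the same order of the genotypes at fewer reads. It lies at chrX:102284640-102505148 and gave 921, 97 and 852 reads in the WT mice and 123, 0 and 0 in the Foxm1 HET mice. WT replicate 2 and Foxm1 HET replicate 1 almost met, at 97 and 123 reads, and were separated only after scaling, at 2.13 and 1.73 log2 CPM. This gave a log2 fold change of -4.92, with a standard error of 3.26 and an adjusted p of 0.945 (edgeR quasi-likelihood test after Benjamini-Hochberg adjustment), and leaving out single libraries moved it between -12.42, without Foxm1 HET replicate 1, and -4.18. The normalized table placed the 3 WT libraries at 5.76, 2.66 and 5.73 and the 3 Foxm1 HET libraries at 1.29, 0.18 and 0.13 on its log2 scale, also without overlap.

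The remaining Hdac genes overlapped between the genotypes. Hdac2, which works beside Hdac1 in NuRD and Sin3, gave 1317, 396 and 444 reads in the WT mice and 3484, 1 and 3146 in the Foxm1 HET mice. Foxm1 HET replicates 1 and 3 were above every WT library and replicate 2 was at a single read. Its log2 fold change of 0.67 (standard error 2.33) turned to -0.51 with the replicate number as a block and to -0.36 with limma-voom, and leaving out single libraries gave 0.28 (Foxm1 HET replicate 1) to 1.45 (WT replicate 1), with 1.35 when Foxm1 HET replicate 2 was dropped. Hdac4, another class IIa gene, gave 8, 15 and 308 reads in the WT mice and 5586, 4 and 2720 in the Foxm1 HET mice, again with replicate 2 apart from the other Foxm1 HET libraries. The log2 fold change was 3.39 with a standard error of 2.64 with all libraries and 7.10 without WT replicate 3. Of the Hdac4 transcript stretches, 21.6% also occur in other genes, and of those of Hdac1 35.5%, so reads of these genes may have been lost or shared in counting. Hdac1 ranged from 8 to 430 reads in WT and from 21 to 743 in Foxm1 HET, and its log2 fold change was -0.03. Hdac3, the enzyme of the NCoR and SMRT complexes, gave 2, 1 and 5602 reads in the WT mice and 531, 33 and 1423 in the Foxm1 HET mice, so that a single WT library carried 73.8% of the reads. Hdac7 (1138, 7495 and 220 reads in WT, 699, 0 and 1474 in Foxm1 HET) and Hdac9 (12, 603 and 0 reads in WT, 59, 70 and 31 in Foxm1 HET) had log2 fold changes of -2.89 and -1.06. In both, WT replicate 2 held most of the reads, 68.0% and 77.8%. The class IIb genes Hdac6 and Hdac10 were not tested, and Hdac10 had reads in Foxm1 HET replicate 3 only, 212 of them. Hdac11 had 2 reads in a single library and is not in the normalized table.

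**Figure D3:**
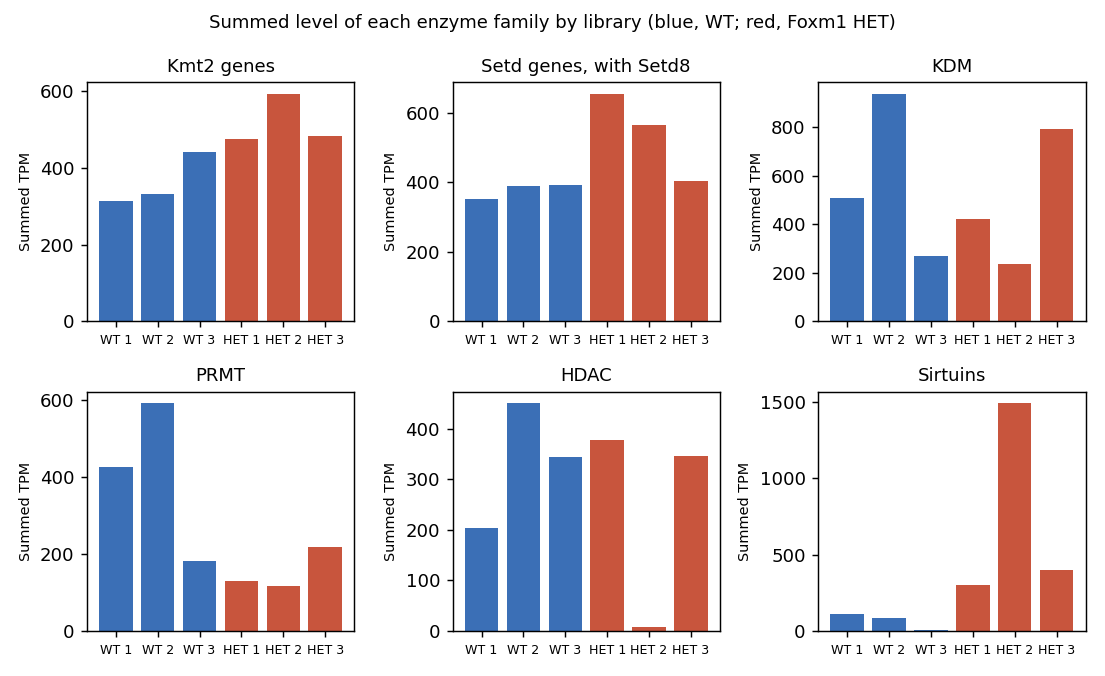
Summed TPM of the enzymes with each symbol prefix in each of the 6 libraries, with Setd8 counted among the Setd genes, WT in blue and Foxm1 HET in red, each panel with its own axis from 0. The Kmt2, Setd and sirtuin sums are higher in each Foxm1 HET library than in each WT library, and the HDAC sum of Foxm1 HET replicate 2 is 6.97 TPM. The Setd sums nearly meet, at 404 TPM in Foxm1 HET replicate 3 and 393 TPM in WT replicate 3. How often sums over other genes separate the genotypes was not tested.

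Of the demethylases, Kdm4b was the gene that separated the genotypes. Kdm4b removes trimethylation from H3K9 and, more weakly, from H3K36, and lies at chr17:56326050-56402873. It gave 4, 0 and 2 reads in the WT mice and 679, 56 and 1556 in the Foxm1 HET mice. WT cells thus gave hardly any reads, and the Foxm1 HET libraries were modest in level, at 12.1, 1.83 and 31.2 TPM. Log2 CPM was -2.61 ± 0.89 (SD, n = 3) over the WT mice and 4.17 ± 1.05 (SD, n = 3) over the Foxm1 HET mice. The fitted log2 fold change was 7.64, with a standard error of 3.86 and an adjusted p of 0.810 (edgeR quasi-likelihood test after Benjamini-Hochberg adjustment), a value that depends on the handling of the few WT reads. It ran from 7.04 to 8.48 with single libraries left out. It was 7.77 with DESeq2 (adjusted p = 0.00222, the lowest of a range up to 1 over the alternatives) and 2.81 with limma on the normalized table. None of the 50-base stretches of Kdm4b occurs in another gene. Its relatives Kdm4a and Kdm4c, which share these substrates, gave 8, 470 and 4 reads in the WT mice and 188, 0 and 1088 in the Foxm1 HET mice, and 750, 3 and 4117 reads in the WT mice and 1243, 3271 and 5545 in the Foxm1 HET mice, both with overlap.

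The other demethylases did not separate the genotypes. Over the 12 tested, 5 had a log2 fold change above 0 and 7 below, and the median was -0.14, which turned to 0.25 with upper-quartile scaling. Kdm3b, an H3K9 demethylase, was the most abundant demethylase per length, at a mean of 165 TPM, with 13039, 30733 and 865 reads in the WT mice and 16486, 980 and 10135 in the Foxm1 HET mice. The lowest library was a WT library, and both genotypes spread more than 10-fold in reads. Its log2 fold change was -1.28 from the reads, less than its standard error, and 0.01 in the normalized table, and 24.1% of its transcript stretches also occur elsewhere. Without WT replicate 2 it was -0.09. Kdm7a, which acts on H3K9 and H3K27, had the lowest log2 fold change of the family at -2.19 (standard error 2.06), from 644, 1099 and 5866 reads in the WT mice and 2266, 11 and 1515 in the Foxm1 HET mice. Without WT replicate 3, the library with the most Kdm7a reads, it was -0.26. The H3K4 demethylases Kdm5a, Kdm5b and Kdm1a had log2 fold changes of 0.26, -0.12 and -1.95, and the H3K27 demethylase Kdm6b -0.16. Those of the H3K36 demethylases Kdm2a and Kdm2b were -1.36 and 1.12, with Kdm2a at 5 reads in WT replicate 3 and 16095 in WT replicate 2. For Kdm3a and Kdm4a they were -0.77 and 0.53, and for Kdm4c 1.20. All of these overlapped between the genotypes after TMM scaling, and Kdm1a did not under RLE scaling. Kdm1b and Kdm8 each had at least 10 reads in no more than 2 libraries and were not tested.

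**Figure D4:**
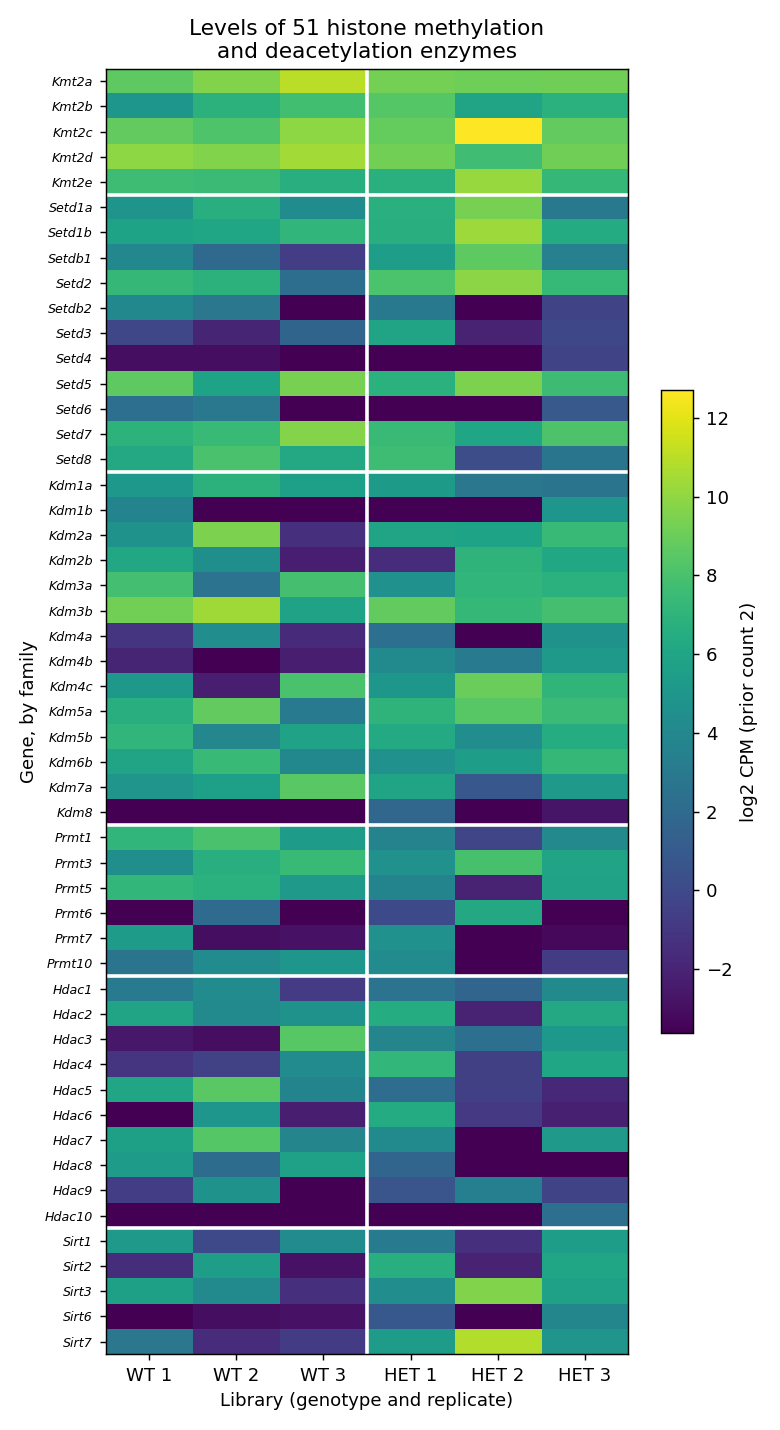
Log2 CPM (prior count 2) of all 51 enzymes in the 3 WT and 3 Foxm1 HET libraries, grouped by family, with dark cells for few or no reads and yellow for the highest levels. The Kmt2 genes are high in every library, whereas many Hdac and Sirt genes are near the floor in some libraries of both genotypes.

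The Kmt2 genes, the large methyltransferases of the COMPASS-like complexes, were detected in every library of both genotypes, with 393 to 43328 reads over the 5 genes. Kmt2d, which with Kmt2c lays down H3K4 monomethylation at enhancers, lies at chr15:98831669-98871205. It gave 21503, 17711 and 22745 reads in the WT mice and 23275, 1323 and 24264 in the Foxm1 HET mice. Reads of Foxm1 HET replicates 1 and 3 were as many as in WT, and these libraries lay below WT (9.26 and 9.18 log2 CPM against 9.61 to 10.47) only once the reads were scaled. This gave a log2 fold change of -1.19, with a standard error of 1.41 and an adjusted p of 0.998 (edgeR quasi-likelihood test after Benjamini-Hochberg adjustment), and it stayed between -1.31 and -0.73 with single libraries left out. Kmt2d had the smallest spread within genotypes of all the enzymes, with an SD of 0.70 on log2 CPM.

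Kmt2c, the closest relative of Kmt2d, had the highest mean TPM of the family, 128. That rank rests on Foxm1 HET replicate 2, at 388 TPM. In every other library Kmt2a or Kmt2d was higher. The reads of Kmt2c were 9976, 6839 and 15572 in the WT mice and 17521, 43328 and 18237 in the Foxm1 HET mice. All Foxm1 HET libraries were above all WT libraries in reads, but they overlapped on log2 CPM. The log2 fold change was 2.14 with a standard error of 1.32, and without Foxm1 HET replicate 2 it was -0.26. That library thus decided the direction. Kmt2a (8760, 17963 and 33170 reads in WT, 23996, 3624 and 24400 in Foxm1 HET) had a log2 fold change of -0.88, Kmt2b of 0.47 and Kmt2e, a SET protein with no established methyltransferase activity, of 1.53. For Kmt2e, 12.0% of exon bases lie opposite exons of another gene, and whether the counting used strand is not stated. Setd8, which monomethylates H4K20 in dividing cells, gave 1647, 5801 and 1194 reads in the WT mice and 7605, 7 and 274 in the Foxm1 HET mice, with overlap and a log2 fold change of -0.97. Summed over the Kmt2 genes, the levels were 314, 331 and 441 TPM in WT and 475, 593 and 483 TPM in Foxm1 HET. These sums did not overlap, but with Setd8 added they did, at 545 TPM in WT replicate 2 and 492 TPM in Foxm1 HET replicate 3. Kmt2c made up 388 TPM of the 593 in Foxm1 HET replicate 2.

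The SETD family had the highest median log2 fold change of the larger families, 2.32 over 9 tested genes, of which 5 were above 0 and 4 below. The median was above 0 under every alternative, but was below the KDM median with limma-voom (0.12 against 0.49) and was 0.22 without Foxm1 HET replicate 2. None of the 9 passed the test. Setd2, the enzyme that trimethylates H3K36 along transcribed genes, lies at chr9:110532597-110618633. It gave 3377, 2620 and 75 reads in the WT mice and 10330, 6025 and 6689 in the Foxm1 HET mice. The genotypes did not overlap, and the lowest WT library, replicate 3, was far below the other WT libraries. Log2 CPM was 5.46 ± 2.78 (SD, n = 3) over the WT mice and 8.42 ± 1.30 (SD, n = 3) over the Foxm1 HET mice, and the log2 fold change was 2.32, with a standard error of 1.68 and an adjusted p of 0.971 (edgeR quasi-likelihood test after Benjamini-Hochberg adjustment). It ran from 1.33 to 2.91 as each library was left out.

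Setdb1, which trimethylates H3K9 and silences retroelements, had the highest log2 fold change of the family, 4.49 (standard error 2.34, adjusted p = 0.850, edgeR quasi-likelihood test after Benjamini-Hochberg adjustment). Its reads were 355, 88 and 9 in the WT mice and 1654, 2630 and 477 in the Foxm1 HET mice. In reads the genotypes did not overlap, but after TMM scaling WT replicate 1, at 4.01 log2 CPM, was above Foxm1 HET replicate 3, at 3.52. Without Foxm1 HET replicate 2 the log2 fold change was 2.09. Setd1a and Setd1b, the catalytic subunits that trimethylate H3K4 at promoters, had log2 fold changes of 2.40 (standard error 1.85) and 2.48 (standard error 1.68). Setd1b gave 1304, 1444 and 2208 reads in the WT mice and 3923, 8212 and 3600 in the Foxm1 HET mice, with the same order in reads and again an overlap on log2 CPM. Under library-size scaling neither Setdb1 nor Setd1b overlapped. For Setd1a the reads overlapped, and 51.2% of its transcript stretches also occur in another gene model.

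The other SETD genes overlapped between the genotypes. Setd6, a methyltransferase of the NF-κB subunit RelA, gave 110, 167 and 0 reads in the WT mice and 0, 0 and 78 in the Foxm1 HET mice, and its log2 fold change was -2.70 with a standard error of 3.05. That value was -9.40 without Foxm1 HET replicate 3 and -1.79 without WT replicate 2. Setd5 had the highest mean TPM of the family, 99.4. It gave 8799, 1300 and 10480 reads in the WT mice and 4249, 4731 and 7906 in the Foxm1 HET mice. Its genotypes overlapped, and the log2 fold change was -0.11 with a standard error of 1.54, with a sign that turned under RLE and upper-quartile scaling. For Setd7, an H3K4 monomethyltransferase, it was -1.14 and for Setdb2, an H3K9 methyltransferase, -1.41. Setd3, a methyltransferase of actin, had 2317 reads in Foxm1 HET replicate 1 and at most 48 in the others, and its log2 fold change was 3.95 with a standard error of 3.24. Setd4 had 32 reads in Foxm1 HET replicate 3, at most 1 elsewhere, and was not tested.

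Prmt1, which makes most of the asymmetric dimethylarginine of the cell, had the highest mean TPM of the arginine methyltransferases. It lies at chr7:44976755-44986420 and gave 3105, 5744 and 673 reads in the WT mice and 488, 5 and 695 in the Foxm1 HET mice. WT replicate 3 and Foxm1 HET replicate 3 were almost level in reads and parted after scaling, at 5.40 and 4.06 log2 CPM. Log2 CPM was 6.84 ± 1.32 (SD, n = 3) over the WT mice and 2.51 ± 2.38 (SD, n = 3) over the Foxm1 HET mice. The fitted log2 fold change was -3.85, with a standard error of 2.29 and an adjusted p of 0.934 (edgeR quasi-likelihood test after Benjamini-Hochberg adjustment) and ran from -4.29 to -3.01 as each library was left out. Per length Prmt1 was the most abundant of the family, at 223, 384 and 41.6 TPM in WT and 26.6, 0.50 and 42.6 TPM in Foxm1 HET, so that on this scale Foxm1 HET replicate 3 was just above WT replicate 3.

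Prmt5, the main enzyme of symmetric dimethylarginine, gave 3223, 2521 and 591 reads in the WT mice and 509, 1 and 2313 in the Foxm1 HET mice, with a log2 fold change of -2.10 (standard error 2.25). Foxm1 HET replicate 3 was within the WT range. Prmt6, which methylates H3R2, was sparse, with 0, 95 and 0 reads in the WT mice and 37, 486 and 0 in the Foxm1 HET mice. Its log2 fold change of 4.17 (standard error 3.22) turned to -1.44 without Foxm1 HET replicate 2, which held 78.6% of its reads, and was 12.17 without WT replicate 2. Prmt3, an enzyme of the ribosomal small subunit, covered a similar range in both genotypes (509, 2320 and 2738 reads in WT, 962, 1624 and 2544 in Foxm1 HET) with a log2 fold change of 0.18 (standard error 1.90). Prmt10 had a log2 fold change of -1.54, and it overlapped. Prmt7 had 905 and 953 reads in replicate 1 of WT and of Foxm1 HET, at most 1 in the other 4 libraries, and was not tested.

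Promoter sequences are shown for the enzymes whose genotypes did not overlap, with the letters of known elements in capitals. They are the stretches of 250 bases before the RefSeq start of 3 genes whose window holds no annotated exon, on GRCm38.p6 and 5′ to 3′ along the gene's strand. Hdac5 is at chr11:102230173-102230422 on the minus strand, Kmt2d at chr15:98871206-98871455 on the minus strand and Setd2 at chr9:110532347-110532596 on the plus strand. Capitals mark CCAAT boxes, the element of NF-Y, on either strand (CCAAT or ATTGG).
Hdac5: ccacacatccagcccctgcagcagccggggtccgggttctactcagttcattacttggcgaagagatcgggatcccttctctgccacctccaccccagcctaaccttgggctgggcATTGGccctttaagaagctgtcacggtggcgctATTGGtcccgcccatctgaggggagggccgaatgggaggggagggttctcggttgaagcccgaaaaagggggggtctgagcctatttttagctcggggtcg
Kmt2d: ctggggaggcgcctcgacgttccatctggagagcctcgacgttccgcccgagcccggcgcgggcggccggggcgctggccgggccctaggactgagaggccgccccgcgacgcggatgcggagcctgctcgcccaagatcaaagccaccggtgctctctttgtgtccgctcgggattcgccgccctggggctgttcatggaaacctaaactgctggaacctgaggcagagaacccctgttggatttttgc
Setd2: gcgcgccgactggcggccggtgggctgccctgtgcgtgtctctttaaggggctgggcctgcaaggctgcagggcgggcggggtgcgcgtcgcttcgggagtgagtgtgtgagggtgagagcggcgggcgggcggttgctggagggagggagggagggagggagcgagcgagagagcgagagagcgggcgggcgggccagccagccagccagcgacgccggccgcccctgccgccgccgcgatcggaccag
The Hdac5 window holds 2 CCAAT boxes, at 134 and 101 bases before the start. The windows of Kmt2d and Setd2 hold none, and they are rich in G and C, at 67.6% and 76.0% with 26 and 31 CpG dinucleotides, against 60.8% and 12 for Hdac5.

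For Sirt7, Hdac8 and Prmt1 the window runs into annotated exons, and only 30 bases around 1 element are shown for each. The stretches shown lie themselves within annotated exon bases, on the minus strand of chr11:120625085-120625114, chrX:102505270-102505299 and chr7:44986471-44986500. Capitals mark the CHR element TTTGAA, through which FoxM1 and its partner complex are known to reach cell cycle promoters, in Sirt7 and Hdac8, and the CCAAT box in Prmt1.
Sirt7: tggtggtatttcTTTGAAatcccgaaggag
Hdac8: tcaggcacctttTTTGAActgtggtcatca
Prmt1: cgtgtctgtcatCCAATtgaaatatgaagc
The marked elements lie 88, 129 and 68 bases before the start. A further TTTGAA of Hdac8, on the other strand at 244 bases, and a Prmt1 CCAAT box at 191 bases lie outside the exon bases. Overlapping CCAAT boxes of Hdac8 at 172 and 169 bases and a CCAAT box of Prmt1 at 27 bases lie within them. None of these is shown. For Sirt7 all 250 bases lie in annotated exons, of Sirt7 or Mafg. RefSeq promoters were matched for 40 of the 51 enzymes (55 promoters), and Kdm4b was not among them. TTTGAA on either strand occurred within 250 bases upstream in 12.7% of the enzyme promoters and in 16.0% of all 32851 promoters. The forkhead core TAAACA occurred in 7.27% against 12.0%, and CCAAT in 41.8% against 33.8%. The enzymes with TTTGAA were Hdac6, Hdac8, Hdac9, Kdm1b, Kdm8, Setd6 and Sirt7, and those with TAAACA were Hdac7, Kdm2b, Kdm5b and Sirt3. A match of letters is a description and not a binding site.

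Detection of the enzymes followed gene length. Single WT libraries held at least 10 reads for 31 to 40 of the 51 enzymes and single Foxm1 HET libraries for 29 to 47. Of the 51, 18 (35.3%) had at least 10 reads in all 6 libraries, against 20.6% of the genes in the normalized table. Among enzymes of 6000 or more exon bases it was 14 of 15 (93.3%, against 47.6% of such genes), and Kdm2a was the exception. The Kmt2 genes, Setd1b, Setd2, Setd5, Setd7, Kdm3b, Kdm5a, Kdm5b, Kdm6b and Kdm7a are among these long genes. Between 3000 and 6000 bases it was 3 of 17, Kdm1a, Kdm3a and Setd1a (17.6%, against 25.7%), and below 3000 bases 1 of 19, Prmt3 (5.26%, against 12.1%). The long enzymes were also more abundant, with a median of 60.2 TPM beside 19.1 and 19.3 TPM in the middle and short classes. Over all genes of the normalized table the medians were 21.7, 16.3 and 12.4 TPM.

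**Figure D5:**
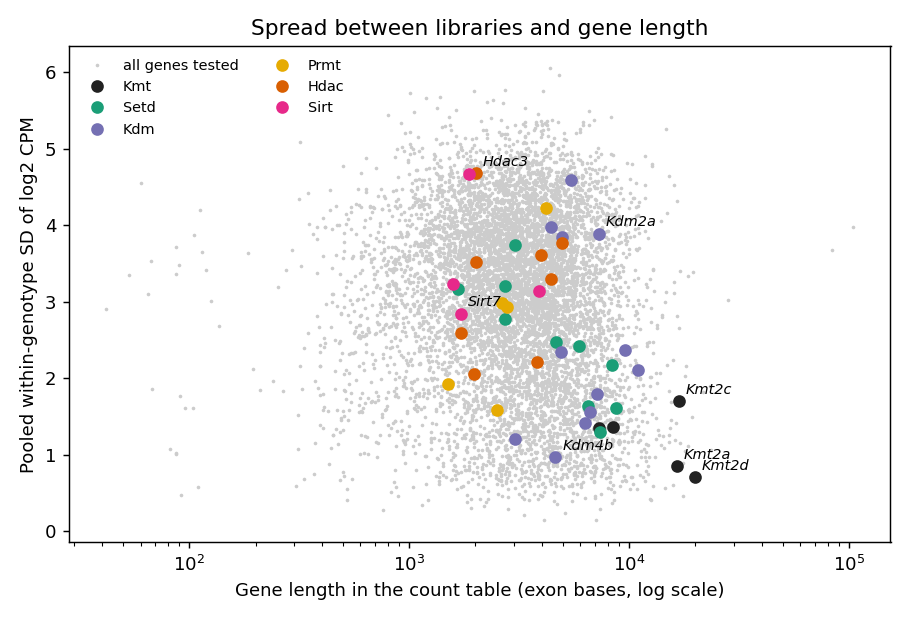
Pooled within-genotype SD of log2 CPM against exon length in bases (log scale) for the 44 enzymes tested, in colour by family, and for all 8195 genes tested, in grey. Kmt2d and Kmt2a are long with a small spread (0.70 and 0.85), and Kmt2c is as long with a spread of 1.70. Kdm2a is long with a wide spread. Kdm4b has a small spread at a moderate length, with 4, 0 and 2 reads in the WT libraries.

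The spread between libraries of a genotype was smallest for the long enzymes and largest for the middle class. Over all 51 enzymes, tested or not, the median SD of log2 CPM within genotypes was 1.61 for the long enzymes, 3.60 for the middle class and 2.84 for the short ones. All genes of the normalized table had the same order, with medians of 2.71, 3.09 and 2.96. Over the 44 tested enzymes the median SD was 2.44, and over all genes tested 3.13. Across the 44 enzymes, the SD had a Spearman correlation of -0.45 with exon length and of -0.31 with mean TPM, and of -0.11 and -0.20 across all genes tested. All points come from the same 6 libraries, genes are not independent replicates, and the longer enzymes were also the more abundant. Hdac3 and Sirt2 were at the other end from the Kmt2 genes, with SDs of 4.68 and 4.66. Foxm1 HET replicate 2 gave the highest log2 CPM for 13 of the 44 enzymes (29.5%, against 19.4% of all genes) and WT replicate 2 for 12 (27.3%, against 19.4%). WT replicate 1 and Foxm1 HET replicate 3 did for 3 each (6.82%, against 15.2% and 13.3% of all genes).

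None of the genes that work with these enzymes passed the test either. Of 66 tested subunits of the COMPASS, NuRD, Sin3, CoREST, NCoR and PRMT5 complexes and other histone methyltransferases and demethylases, 33 had a log2 fold change above 0 and 33 below, with a median of -0.02, and 0 passed an adjusted p of 0.05 by the edgeR quasi-likelihood test after Benjamini-Hochberg adjustment. DESeq2 called 2 of the 51 that it gave an adjusted p, beside the 3.13% of all genes given above. At an unadjusted p under 0.05 there were 4 (6.06%, against 6.03% of all genes), with 3 higher and 1 lower in Foxm1 HET. Dot1l, the H3K79 methyltransferase, gave 543, 2052 and 26 reads in the WT mice and 823, 26916 and 838 in the Foxm1 HET mice, most of them in Foxm1 HET replicate 2, and its log2 fold change was 5.17 (adjusted p = 0.193, edgeR quasi-likelihood test after Benjamini-Hochberg adjustment). Phf2, a demethylase of H3K9, was at 217, 4209 and 23772 reads in the WT mice and 698, 19 and 1919 in the Foxm1 HET mice, with a log2 fold change of -4.65. Both overlapped between the genotypes. Brms1l, a Sin3 subunit, and Mta2, a NuRD subunit, had log2 fold changes of 7.38 (standard error 3.48) and 3.89 (standard error 1.95), again with overlap. The genotypes did not overlap for 5 of the 66 genes (7.58%, against 8.68% of all genes). Those higher in Foxm1 HET were Cxxc1 of the Setd1 complexes, Sin3b, and Wdr77, the partner of Prmt5, and those lower were Hcfc1 and Mta3. By complex, the median log2 fold change was 0.52 over 12 COMPASS genes, 0.52 over 11 NuRD genes, 0.16 over 12 Sin3 genes, -1.10 over 4 CoREST genes, -1.10 over 5 NCoR genes and -0.20 over 3 PRMT5 partners.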

How the data were processed

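RNA-Seq was performed on sorted LT-HSCs of 3 WT and 3 Foxm1 HET mice, grouped by the genotype in the sample labels. According to the study's methods, single reads of 50 bases were checked, trimmed and aligned to GRCm38 with STAR 2.7.2b. The labels name a ribosomal RNA depletion and stranded total RNA kit, the methods another kit. The counting program and its use of strand, multiply mapped reads and duplicates are not given in the sources used here, and limma is named without a role in the submitters' processing notes. The authors deposited raw counts per gene for 27179 genes, with exon lengths, and a normalized table of 12179 genes with log2 values, whose libraries share a common distribution. Duplicates cannot be recognized in the counts, so counting limits understate the error.

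The enzymes and the lists of partner and marker genes were chosen with earlier results of these data known. Counts of the whole table were fitted with edgeR 4.0.16 in R 4.3.3, with its default filter on low counts, TMM scaling and the quasi-likelihood test, adjusted over 8195 genes by the Benjamini-Hochberg method. Standard errors were obtained by dividing each log2 fold change by the root of its F statistic. A prior count of 2 went into log2 CPM, and TPM was computed from the counts and exon lengths. Genotypes were compared gene by gene with an exact two-sided permutation test of mean log2 CPM. Named are the tested enzymes with an unadjusted p under 0.05 or without overlap, those with the highest and lowest fold change and the highest TPM of each family, others within the sentences on their family, and partner genes with an unadjusted p under 0.05. The partner genes without overlap were named after their values were seen. Read sharing was judged from 50-base stretches of GENCODE M21 transcripts on GRCm38, and promoters come from RefSeq on GRCm38.p6.

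As alternatives, the reads were scaled by RLE, upper quartile or library size alone, the filter was dropped or raised to 10 counts in all libraries, a block for the replicate number was added, single libraries were left out, and the test was replaced by DESeq2 1.42.0, by limma-voom (limma 3.58.1) or by limma on the normalized table. The scripts were tested on simulated data. The libraries come from separate mice, the methods speaking of 3 pairs, and p-values measure the spread between these libraries. A marker gene of the B cell list, and the summed level of that list, are not reported here.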

Additional observations from a re-analysis of the deposited data

How the results depend on the processing

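Of 230 fits of the 16 enzymes named by rule under the alternatives, 211 kept direction and side of the threshold, 4 kept direction but got no adjusted p from DESeq2 (Kmt2c, Prmt6, Setdb1 and Sirt7), 12 reversed direction and 3 came under an adjusted p of 0.05. The 3 were Sirt7 with upper-quartile scaling and Hdac5 and Kdm4b with DESeq2. So 1 enzyme passed with upper-quartile scaling, which called 43 of all genes, and 2 with DESeq2, which called 194 of all genes and 2 partner genes. The reversals were Hdac2 at -0.51 with the replicate block and -0.36 with limma-voom, Kdm3b at 0.0076 in the normalized table, Kmt2c at -0.26 and Prmt6 at -1.44 without Foxm1 HET replicate 2, and Setd5 at 0.64 with RLE scaling and with DESeq2, 0.22 with upper-quartile scaling, 0.20 in the normalized table, 0.59 without WT replicate 3, and 0.33 and 0.18 without Foxm1 HET replicates 1 and 3. With each library left out in turn, Kmt2c ran from -0.26 to 2.75, Prmt6 from -1.44 to 12.17 and Setd5 from -1.20 to 0.59. The cause was not tested.

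At an unadjusted p under 0.05 there were 5 enzymes with RLE scaling, upper-quartile scaling and the normalized table (7.16%, 5.69% and 4.73% of all genes), 0 among the 18 enzymes left with at least 10 counts in every library, and 1 to 3 with each library left out, the 1 being Sirt7 without Foxm1 HET replicate 3. Without overlap there was 1 enzyme, Setd2, under that filter, which leaves 2516 genes (10.1% of them without overlap). With each library left out there were 10 to 13, where fewer libraries give less chance to overlap (15.3% to 22.0% of all genes). The first 7 were always included, but leaving a library out could undo their separation only through the changed scaling. The median log2 fold change of the enzymes ran from -0.46 to 0.55 with each library left out, the highest without WT replicate 2. Medians of all genes were -0.26 with TMM, -0.13 with RLE, 0.14 with upper-quartile and 0.10 with library-size scaling.

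Deviations of same-numbered libraries had correlations of 0.02, -0.03 and -0.07. With 3 widely spread libraries per genotype, these values cannot show whether the replicate numbers pair the mice. With the replicate block, 0 enzymes and 0 of all genes passed an adjusted p of 0.05 (edgeR), 2 enzymes had an unadjusted p under 0.05, and the median was 0.16. The filter on low counts left 7 enzymes untested. Each of them had at least 10 reads in no more than 2 libraries.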
